A study of Mus musculus with 2 samples.

Results

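The genes described here are those of respiratory complexes I, II, III and V, found by a name rule: every non-control probe whose gene name in the scanner files begins with Nduf, with Sdha to Sdhd, with Uqcr or with Atp5. The rule gave 71 genes on 96 probes, of 31896 gene names on 39429 probes in all. Of the 71 genes, 61 encode subunits, 7 encode assembly factors and 3 are neither. Uqcr is the older name of Uqcr11, and Atp5f1 is listed by RefSeq as Atp5pb. The scanner software called all 71 well above background on each array, so no member was lost to the filter on dim probes.

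Liver RNA of C57BL/6 mice was hybridized to 1-colour Agilent arrays. A single array held liver of genotype Alb-Cre;CAG-floxed neo-Snail, and a single array held wild-type liver, so there was 1 array per group and no replicate. Alb-Cre is a Cre recombinase driven in hepatocytes by the promoter of albumin, and CAG is a strong ubiquitous promoter that here drives the transcription factor Snail once Cre acts on the floxed neo cassette. The other cell types of the liver are not meant to switch the transgene on, but their RNA is in the sample. Age, sex and diet, and whether the sampled liver held a tumour, are not stated in the labels.

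Snai1, which encodes Snail, had a signal of 22.3 in the Alb-Cre;CAG-floxed neo-Snail liver and 23.2 in wild-type liver, a log2 difference of -0.44 after scaling. Both lay close to the lowest signal well above background, 12.9 on the array of the Alb-Cre;CAG-floxed neo-Snail liver and 13.8 on the wild-type array. The difference is therefore not read as a lower level of Snai1. Whether the Snai1 probe can see the transgene is not known, so the array of the Alb-Cre;CAG-floxed neo-Snail liver is called the library labelled Snail. All 10 hepatocyte markers were well above background on both arrays. After scaling all 10 were lower in the library labelled Snail, from -3.04 to -0.08, with a median log2 difference of -0.64. Their summed level, in units of each array's 75th percentile, was 2109 in the library labelled Snail and 3192 in wild-type liver. Of the 3793 genes with signals of at least 1000 on both arrays, 2350 were below 0 as well. Values of the cell type markers under other scalings are not given here. The 5 Kupffer cell markers were all higher, with a median of 0.13, and the 4 measured stellate cell markers all lower, with a median of -0.91. The part of these shifts in the values below was not tested. All 5 skeletal muscle markers were not well above background on either array. In a bulk liver sample, fewer cells of a type and less RNA per cell cannot be told apart.

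The respiratory chain lies in the inner mitochondrial membrane. Complex I takes electrons from NADH and complex II from succinate, both pass them by ubiquinone to complex III, and the proton gradient so built drives ATP synthesis by complex V. Complexes I, III and V are mosaics of subunits encoded in the nucleus and in mitochondrial DNA, while complex II is encoded in the nucleus alone. Assembly factors are helper proteins that insert cofactors or join modules and are not part of the finished enzyme. Hepatocytes are rich in mitochondria and use this chain for fatty acid oxidation, gluconeogenesis and urea synthesis.

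Values are given as the background-subtracted signal of each array and as a log2 difference, the library labelled Snail minus wild-type, after division of each array by its own 75th percentile. That percentile was 302.1 on the array of the library labelled Snail and 232.7 on the wild-type array. Signals about 1.3 times higher in the library labelled Snail therefore count as equal. With 1 array per group no test was run, and each difference compares these arrays only. Spots of the same probe gave a technical spread of the log2 difference, a median SD of 0.04 for signals over 1000, 0.07 for signals from 100 to 1000 and 0.19 for dimmer ones. It holds no difference between animals.

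The genes of the 4 complexes lay close together on the arrays. Their median log2 difference was -0.08, with quartiles of -0.23 and 0.01, against a median of -0.03 and quartiles of -0.34 and 0.26 over the 15467 genes measured on both arrays. Of the 71 genes, 41 (57.7%) were less than 1.1-fold apart and 61 (85.9%) less than 1.25-fold apart. Among all genes these shares were 24.9% and 52.2%, and among the 3793 genes with signals of at least 1000 on both arrays they were 28.4% and 57.7%. A single member, Ndufs4, was at least 1.5-fold apart, and it was lower. Over all genes 24.5% were at least 1.5-fold apart, with 10% higher and 14.5% lower. Among the genes with signals of at least 1000 the share was 21.3%, with 3.85% higher and 17.4% lower. No member was 2-fold apart. Of all genes 10.3% were, with 3.96% higher and 6.34% lower, and of the genes with signals of at least 1000 8.12% were, with 1.5% higher and 6.62% lower.

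**Figure D1:**
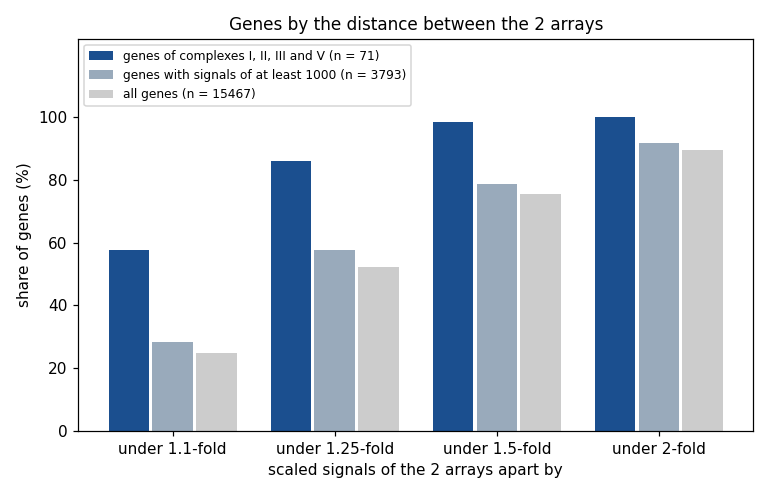
Share of genes, in percent on the vertical axis, whose scaled signals on the 2 arrays were less than 1.1-fold, 1.25-fold, 1.5-fold or 2-fold apart, for the 71 genes of complexes I, II, III and V, the 3793 genes with signals of at least 1000 on both arrays and all 15467 genes measured. The bar of the complexes is the tallest at each fold, at 57.7%, 85.9%, 98.6% and 100%.

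The differences leaned slightly downward, and this lean depends on the scaling. Of the 71 genes 52 were below 0 and 19 above it, and 48 lay below the median of all genes. Against genes past a floor of 1000 in signal they were not lower, though that floor does not match brightness above it. The 63 members with signals of at least 1000 on both arrays had a median of -0.09, against -0.12 for all 3793 such genes. Under quantile normalization the median of the 71 genes was 0.15 and 48 of them lay above the median of all genes, which was 0.01. In the authors' value table the median was 0.11, with 46 above the median of all genes. With normexp background correction it was -0.0026, with 45 above. A direction for the members as a whole therefore cannot be given, whereas their narrow spread was present in all of these settings. The interquartile range of the members was between 0.22 and 0.29 in those 3 settings and as reported, against 0.44 to 0.63 for all genes.

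Where a gene had several probes, the probes mostly gave the same answer. Of the 71 genes 20 had more than 1 probe, and the median span between the probes of a gene was 0.08, against 0.19 over 3038 genes of the arrays. Those 3038 genes were not matched to the members for signal. Probes of some members, such as Atp5l, Uqcrb and Uqcrh, overlap on the genome and are not independent readings. No member had probes more than 1 apart on the log2 scale. RefSeq lists a pseudogene copy by name for 8 members, among them Atp5k, Atp5l, Uqcrh and Ndufs5. The part that such copies have in these signals was not tested.

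**Figure D2:**
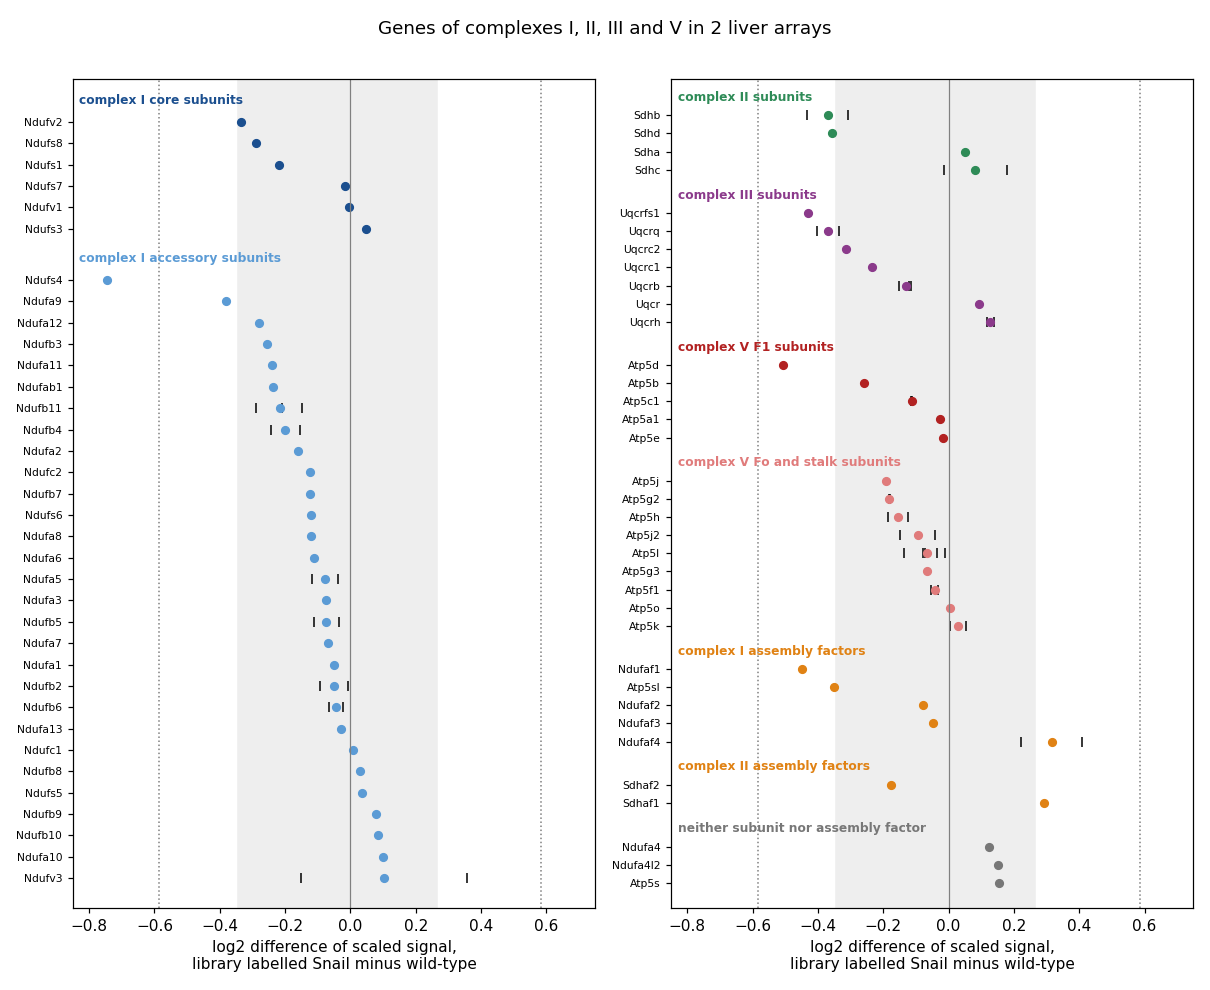
Log2 difference of scaled signal, library labelled Snail minus wild-type, on the horizontal axis for 70 of the 71 genes, grouped by complex and role. Dots are genes, short bars are the separate probes of genes with several, the grey band spans the quartiles of all measured genes and dotted lines mark 1.5-fold. Only Ndufs4, at -0.75, lies beyond a dotted line.

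Complex I, NADH dehydrogenase, gave 36 of the 61 subunits. Its 7 nuclear-encoded core subunits have counterparts in the bacterial enzyme, as do the subunits from mitochondrial DNA described further on, and they carry the flavin and the iron-sulfur clusters of the peripheral arm. Their median was -0.02, and they fell into a lower and a near-equal group. Ndufv2, which binds an iron-sulfur cluster near the flavin, had signals of 8752 in the library labelled Snail and 8506 in wild-type liver, a log2 difference of -0.34. Ndufs8 had signals of 1843 in the library labelled Snail and 1735 in wild-type liver, a difference of -0.29. Ndufs1, the largest core subunit, had 6107 in the library labelled Snail and 5468 in wild-type liver, a difference of -0.22. These 3 differences are each several times the technical spread at such signals, which says nothing of animals. Their size depends on the scaling. Under quantile normalization Ndufv2 was at -0.08, Ndufs8 at -0.17 and Ndufs1 at -0.04.

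Other core subunits were within 0.05 of equal in the reported setting. Under quantile normalization Ndufs7 and Ndufv1 were at 0.30 and Ndufs3 at 0.35. Ndufs7, which holds the last iron-sulfur cluster before ubiquinone, had signals of 23646 in the library labelled Snail and 18402 in wild-type liver, a log2 difference of -0.02. Ndufv1, the flavin and NADH-binding subunit, had 21028 in the library labelled Snail and 16246 in wild-type liver, a difference of -0.0047. Ndufs3 was highest at 0.05, with signals of 17175 in the library labelled Snail and 12796 in wild-type liver.

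The 29 accessory subunits surround the core and have no cofactor for electron transfer. Their median was -0.08, with 22 below 0 and 7 above. Ndufs4 stood apart. It sits in the peripheral arm near the NADH site, its loss in people is a cause of Leigh syndrome, and its knockout in mice is used as a model of that disease. Its signal was 3128 in the library labelled Snail and 4041 in wild-type liver, a log2 difference of -0.75, or 1.68-fold lower. It was the lowest of the 71 genes in the reported setting and in the 7 other settings that give it a value on the same members, where it ranged from -0.75 to -0.59. A single probe measured it, so there is no second probe to set beside it. The probe lies on the minus strand of chr13:115078980-115079039 (mm9). All 3 of its reading frames lack a stop, so the coding frame cannot be told from them. Its sequence is shown with that of the lowest subunit of complex V, the Sdhb probe and the Ndufv3 probe discussed below, as examples of what was measured. The values of Sdhb and Ndufv3 are means over 2 probes each, of which 1 is shown. None of their bases is marked in capitals.
Ndufs4: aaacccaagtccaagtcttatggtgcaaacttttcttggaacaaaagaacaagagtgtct
Atp5d: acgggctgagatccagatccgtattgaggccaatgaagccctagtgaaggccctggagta
Sdhb: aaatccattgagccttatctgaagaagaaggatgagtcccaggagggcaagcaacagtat
Ndufv3: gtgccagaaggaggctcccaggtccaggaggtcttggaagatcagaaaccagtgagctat

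Next to Ndufs4 in order came Ndufa9, a subunit near the ubiquinone site, with signals of 3857 in the library labelled Snail and 3867 in wild-type liver and a log2 difference of -0.38. Ndufa12, a paralogue of the assembly factor Ndufaf2, had 12683 in the library labelled Snail and 11863 in wild-type liver, a difference of -0.28. The gap between Ndufs4 and Ndufa9 is larger than that between any other neighbours among the accessory subunits. At the other end, Ndufb10, a subunit of the membrane arm, had 34884 in the library labelled Snail and 25331 in wild-type liver, a difference of 0.08. Ndufa10 had 1972 in the library labelled Snail and 1418 in wild-type liver, a difference of 0.10.

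Ndufv3 had the highest mean among the accessory subunits, at 0.10, but its probes differed. One probe, on chr17:31665148-31665207 (mm9) and printed above, had signals of 363.4 in the library labelled Snail and 218.7 in wild-type liver, a log2 difference of 0.36. The other, on chr17:31668209-31668268, had 36799 in the library labelled Snail and 31505 in wild-type liver, a difference of -0.15. The span of 0.51 was the widest among the members. By the first probe Ndufv3 lies above all other accessory subunits, and by the second below their median.

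Complex II, succinate dehydrogenase, links the citrate cycle to the chain, and its 4 subunits split into pairs. Sdhb, the iron-sulfur subunit, had signals of 12240 in the library labelled Snail and 12181 in wild-type liver as means over its probes, a log2 difference of -0.37. Its probes gave -0.31 at chr4:140529606-140529665 (mm9) and -0.43 at the other site. Sdhd, a membrane anchor, had 11120 in the library labelled Snail and 10958 in wild-type liver, a difference of -0.36. In contrast Sdha, the flavin subunit, had 8537 in the library labelled Snail and 6346 in wild-type liver, a difference of 0.05. Sdhc, the other membrane anchor, had 6549 in the library labelled Snail and 4767 in wild-type liver, a difference of 0.08, from probes at -0.02 and 0.18. The pairs did not follow the split between catalytic subunits and anchors.

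Complex III, the cytochrome bc1 complex, had the lowest median of the 4 complexes by the name rule, at -0.23 over 7 genes. The rule does not reach its subunits Cyc1, at -0.05, and Uqcr10, at 0.19. With members named by accession, which adds Uqcr10, the median was -0.18. Complex III was still lowest there, with complex II next at -0.15. With Cyc1 counted too, its middle value is that of Uqcrb, at -0.13, so its rank depends on which genes are counted. Uqcrfs1, the Rieske iron-sulfur protein, was lowest at -0.43, with signals of 7327 in the library labelled Snail and 7610 in wild-type liver. Uqcrq, a small subunit, had 25064 in the library labelled Snail and 24942 in wild-type liver, a difference of -0.37, and its 2 probes were 0.07 apart. The core proteins Uqcrc2 and Uqcrc1 were at -0.31 and -0.23. Uqcrb was at -0.13. Above 0 were Uqcr, with signals of 52641 in the library labelled Snail and 38013 in wild-type liver and a difference of 0.09, and the hinge protein Uqcrh, at 0.13, with 32522 in the library labelled Snail and 22922 in wild-type liver.

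Uqcrc2 was the one member whose probe was printed more than once. Over its 10 spots the signal had a lowest value of 10638, a median of 11033 and a highest value of 11856 in the library labelled Snail, against 9768, 10812 and 10975 in wild-type liver. The log2 difference averaged -0.31 with an SD of 0.08 between spots. It ran from -0.37 to -0.27 in 9 of the 10 spots and was -0.10 in the remaining one, which had the highest signal of the library labelled Snail and the lowest of wild-type liver. All 10 spots were below 0.

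Complex V, ATP synthase, joins the catalytic F1 head to the proton-carrying Fo part by a central and a peripheral stalk. The 5 genes of F1 had a median of -0.11, and all 5 were below 0. Atp5d, the delta subunit of the central stalk, was lowest at -0.51, or 1.42-fold lower, with signals of 10347 in the library labelled Snail and 11328 in wild-type liver on chr10:79608230-79608289 (mm9). Atp5b, the catalytic beta subunit, had 47137 in the library labelled Snail and 43404 in wild-type liver, a difference of -0.26. Atp5c1, the gamma subunit, was at -0.11 by both of its probes. Atp5a1, the alpha subunit, was at -0.03 and Atp5e, the epsilon subunit, at -0.02. Atp5d was the lowest gene of complex V in the reported setting and the 7 others, and under quantile normalization it was at -0.25 with Atp5j next at 0.06.

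The 9 genes of Fo and the peripheral stalk had a median of -0.07, the smallest SD between genes (0.08) among the sets of at least 4 genes, and a range from -0.19 to 0.03. Lowest were Atp5j, coupling factor 6, with signals of 12219 in the library labelled Snail and 10739 in wild-type liver and a difference of -0.19, Atp5g2, a gene of the c ring, at -0.18, and Atp5h, of the peripheral stalk, at -0.15. Highest were Atp5f1, the b subunit, at -0.04, Atp5o, which joins the stalk to F1, at 0.0049, and Atp5k, the e subunit, at 0.03. Atp5l, the g subunit, was read by 5 overlapping probes, whose differences lay between -0.14 and -0.01 around a mean of -0.07.

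The 7 assembly factors found by the name rule spread more widely than the subunits, with an SD of 0.29 between genes against 0.17 for the subunits. Their medians differed little, at -0.09 for the subunits and -0.08 for the assembly factors. Ndufaf1, which works early in building the membrane arm of complex I, had signals of 1596 in the library labelled Snail and 1677 in wild-type liver, a log2 difference of -0.45. Atp5sl, listed by RefSeq as Dmac2 and involved in the distal membrane arm, had 2031 in the library labelled Snail and 1996 in wild-type liver, a difference of -0.35. Ndufaf2 was at -0.08 and Ndufaf3 at -0.05.

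In the reported setting the highest of the 71 values belonged to assembly factors. Under quantile normalization Uqcrh, at 0.43, Ndufa4 and Uqcr were above them, and in the authors' processed values Uqcrh and Uqcr were above Sdhaf1. Ndufaf4, a partner of Ndufaf3, had signals of 844.2 in the library labelled Snail and 522.5 in wild-type liver, a difference of 0.32, or 1.24-fold higher, with probes at 0.22 and 0.41. Sdhaf1, which helps deliver iron-sulfur clusters to Sdhb, had 1104 in the library labelled Snail and 694.8 in wild-type liver, a difference of 0.29. Sdhaf2, which helps attach the flavin to Sdha, had 283.2 in the library labelled Snail and 246.4 in wild-type liver, a difference of -0.18. Sdhb, which needs Sdhaf1, was thus lower while Sdhaf1 was higher.

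The comparison of subunits with assembly factors turned on which genes the old names reach. A further 6 assembly factors carry RIKEN or other early names in the scanner files and were matched by accession to Ndufaf5, Ndufaf6, Ndufaf7, Ndufaf8, Sdhaf3 and Sdhaf4. All 6 were below 0, with a median of -0.43. Ndufaf8, the partner of Ndufaf5, had signals of 226.1 in the library labelled Snail and 312.9 in wild-type liver, a difference of -0.85, or 1.80-fold lower. Ndufaf7, a methyltransferase, was at -0.54, Ndufaf6 at -0.52, and Ndufaf5, which modifies Ndufs7, at -0.34. Sdhaf4 was at -0.33 and Sdhaf3 at -0.29. With these 6 the 13 assembly factors had a median of -0.33, with 11 below 0, against -0.09 for the 61 subunits. Of all 15467 genes 8130 were below 0. Further assembly factors, in the list of other genes of the complexes below, are not counted among the 13. The 3 subunits under later symbols, Uqcr10 at 0.19, Atp5mpl at 0.02 and Atp5md at 0.01, were not lower. These genes were matched by symbol after the values of the others were known.

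Members that are neither were all slightly higher. Ndufa4, once placed in complex I and now counted with complex IV, had signals of 21421 in the library labelled Snail and 15127 in wild-type liver, a difference of 0.13. Its paralogue Ndufa4l2, known as a target of hypoxia-inducible factor, had 169.2 in the library labelled Snail and 117.5 in wild-type liver, a difference of 0.15. Atp5s, coupling factor B, was dim at 49.8 in the library labelled Snail and 34.5 in wild-type liver, a difference of 0.15 that lies within the technical spread of 0.19 at such signals.

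The subunits of these complexes and of complex IV that are encoded in mitochondrial DNA have other names in the files, and 12 of them were measured. Of the 12, 11 were below 0, with a median of -0.33, which is 0.23 lower than the median of the 61 nuclear-encoded subunits. ND6, the complex I subunit encoded on the other strand of mitochondrial DNA, had signals of 1446 in the library labelled Snail and 1539 in wild-type liver, a difference of -0.47. CYTB, the cytochrome b of complex III, had 90391 in the library labelled Snail and 93225 in wild-type liver, a difference of -0.42. COX1 and COX2 of complex IV were at -0.44 and -0.47, and ATP8 of complex V at -0.25. ND1 was the exception, at 0.24, with 8446 in the library labelled Snail and 5504 in wild-type liver. Under quantile normalization the median of the 12 was 0.05 against 0.15 for the nuclear-encoded subunits. In the values the authors processed it was 0.03 against 0.11. The sign of the mitochondrially encoded set thus turned with the scaling. Its place below the nuclear set did not, though the gap was smaller in both, and the sets were not matched for signal.

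**Figure D3:**
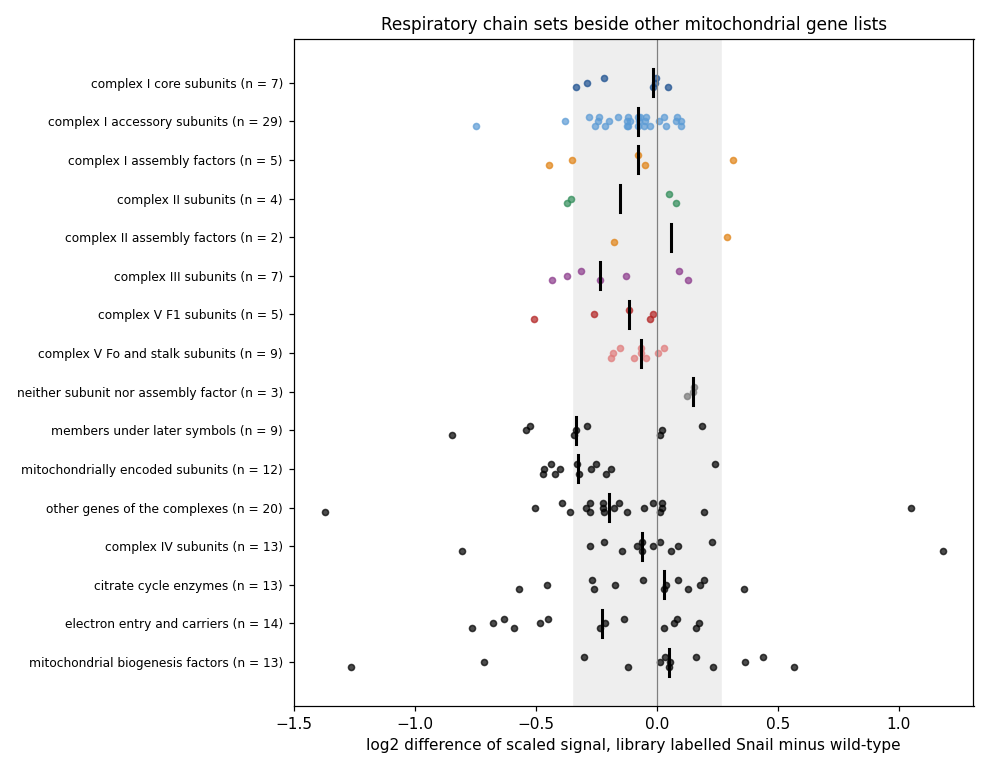
Log2 difference of scaled signal, library labelled Snail minus wild-type, for each gene (dots) of the sets of complexes I, II, III and V and, in black, of related mitochondrial lists, with the median of each as a bar and the quartiles of all genes in grey. The 9 genes under later symbols (6 assembly factors and 3 subunits) and the 12 mitochondrially encoded subunits have medians of -0.33, below that of each set above them.

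Other genes of the same complexes, from a list of helpers and subunits that the name rule does not reach, were described in the same way. Of 22 on the arrays 20 were measured, with a median of -0.20, and 2 of them were more than 1.5-fold apart, a smaller share than the 24.5% of all genes. Atpif1, which encodes the inhibitor that stops complex V from breaking down ATP, had signals of 16062 in the library labelled Snail and 5970 in wild-type liver, a difference of 1.05, or 2.07-fold higher. Over the other settings it ranged up to 1.29. Acad9, which helps assemble complex I together with Ndufaf1, had 787.1 in the library labelled Snail and 1571 in wild-type liver, a difference of -1.37, or 2.59-fold lower. Nubpl, which delivers iron-sulfur clusters to complex I, was at -0.51. Cyc1, the cytochrome c1 of complex III, was at -0.05.

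Beside these lists, the 13 measured complex IV subunits had a median of -0.06. Among them Cox6b2 was at 1.18, Cox7a1 at -0.81 and Cox5a at -0.28, while Cox8b was at least 1917-fold higher, with a signal of 34388 in the library labelled Snail against 7.73, not well above background, in wild-type liver. The 13 citrate cycle enzymes had a median of 0.03 and none was 1.5-fold apart, with Fh1 at -0.57, Sucla2 at -0.45 and Suclg2 at 0.36. Of 14 genes of electron entry and carriers 4 were at least 1.5-fold lower, against 14.5% of all genes and 17.4% of genes with signals of at least 1000, and none was 1.5-fold higher. One of the 4, Coq7, was only just past that fold at -0.59. The others were Etfdh, at -0.76, and Etfb, at -0.68, which pass electrons of fatty acid oxidation to ubiquinone without complex I, and Gpd2, at -0.63.

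Of 13 measured factors that drive mitochondrial biogenesis and gene expression 2 were at least 1.5-fold lower, near the 14.5% of all genes that were, and none was 1.5-fold higher. Their median was 0.05. Tfb1m, which methylates mitochondrial ribosomal RNA, had signals of 212.8 in the library labelled Snail and 393.6 in wild-type liver, a difference of -1.26. Ppargc1a, the coactivator PGC-1alpha, had 78.8 in the library labelled Snail and 99.6 in wild-type liver, a difference of -0.72. Its probes gave -0.96 and -0.47, and the second is short of 1.5-fold. Twnk, the mitochondrial DNA helicase, was at 0.57. Nrf1 was at 0.16, Gabpa at -0.12 and Tfam at 0.06. The probes of Nrf1, at -0.10 and 0.43, and those of Gabpa, at -0.39 and 0.15, differed in sign.

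Promoters of nuclear respiratory genes are known to bind NRF1, the ETS factor GABPA and YY1, and those of the members were searched for the letters of these sites. RefSeq promoters (GRCm38.p6, from 250 bases before to 50 after the start) were matched for 61 of the 71 genes, and 1 promoter per gene was read on both strands. The NRF1 motif, GCGC and TGCGC with any 1 base between them, was in 16 of the 61 (26.2%) against 4.78% of 27025 genes. The GABPA motif CCGGAAG was in 15 (24.6%) against 9.12%, and the YY1 motif GCCATNTTG in 11 (18%) against 2.65%. The TATA box letters TATAAA were in 5 (8.20%) against 14.2%. No promoter held overlapping matches of these 3 motifs. The promoters of the members had a median G and C content of 59.3%, against 52.7% over all genes, and its part in the motif shares was not tested. At least 1 of the NRF1, GABPA and YY1 motifs was in 37 promoters (60.7%), against 15.0% of all genes.

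The log2 differences of the members did not divide by these motifs. The median was -0.08 for the 37 genes with at least 1 of the 3 motifs and -0.07 for the 24 without. It was -0.12 for genes with the NRF1 motif and -0.07 for those without. Shown here are the 120 bases before the start site of Ndufs4, the member furthest apart, which has none of the 3 motifs in its window, and of 3 genes that have them. The capitals mark the NRF1 motif in Ndufs6, the GABPA motif in Ndufs3 and first the NRF1 and then the GABPA motif, read on the other strand, in Sdhd. All are on GRCm38.p6 and the minus strand: Ndufs4 at chr13:114388095-114388214, Ndufs6 at chr13:73328483-73328602, Ndufs3 at chr2:90904722-90904841 and Sdhd at chr9:50603850-50603969.
Ndufs4: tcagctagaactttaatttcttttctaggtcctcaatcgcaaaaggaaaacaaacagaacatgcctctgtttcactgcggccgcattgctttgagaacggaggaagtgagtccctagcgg
Ndufs6: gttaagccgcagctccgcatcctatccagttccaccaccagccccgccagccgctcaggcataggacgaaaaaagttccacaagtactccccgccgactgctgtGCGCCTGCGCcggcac
Ndufs3: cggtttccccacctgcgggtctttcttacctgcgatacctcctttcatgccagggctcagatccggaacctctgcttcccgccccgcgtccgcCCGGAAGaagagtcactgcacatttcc
Sdhd: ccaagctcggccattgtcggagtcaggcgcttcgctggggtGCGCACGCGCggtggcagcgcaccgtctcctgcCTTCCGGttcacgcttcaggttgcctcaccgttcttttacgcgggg

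Ndufs6 had a log2 difference of -0.12, Ndufs3 of 0.05 and Sdhd of -0.36, so the printed genes with the GABPA motif lay on either side of 0. Those printed with the NRF1 motif, Ndufs6 and Sdhd, were below 0, while Ndufaf4, which also has it, was at 0.32. Ndufs6 has a YY1 motif as well, outside the bases shown. A match of letters is a description of the sequence and shows no binding.

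**Figure D4:**
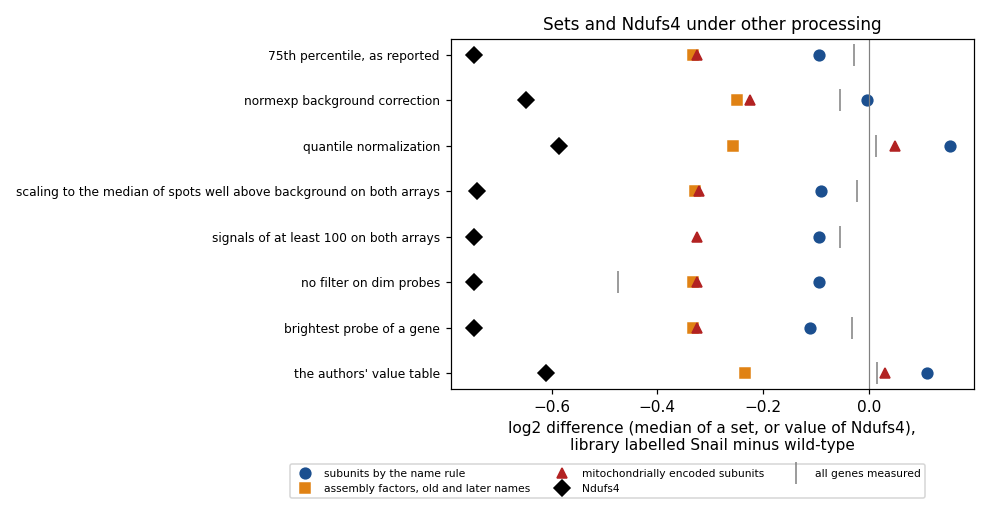
Log2 difference, library labelled Snail minus wild-type, as the median of the 61 subunits, of the 13 assembly factors and of the 12 mitochondrially encoded subunits, and as the value of Ndufs4, under the reported scaling and 7 other settings, with the median of all genes as a grey tick. Ndufs4 is the lowest point in each row, the assembly factors lie below the subunits wherever they have a value, and the subunits lie between -0.11 and 0.15. In the row without a filter the grey tick is set by the floor to which dim spots were raised.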

How the data were processed

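The arrays were read with Agilent Feature Extraction 9.5.1.1 according to the processing notes of the submitters. The deposited intensity of a spot was detrended within its own array, per the file headers, with no scaling from one array to another, and probe coordinates are on mm9. The authors also deposited a table of processed intensity values of the same arrays, on a linear scale, whose normalization no source used here states. Both of its columns had a median of 17.3 and followed their own arrays with a correlation of log2 values of 0.999.

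The processed signals were taken to log2, and the 75th percentile of the 43020 non-control spots of an array was subtracted from its values. Spots marked as outliers on either array (287) were left out and none was saturated. The share of spots well above background was 54.0% for the library labelled Snail and 50.7% for wild-type. Repeat spots were averaged as log2 values, then those probes of a gene that passed this call on each array. A gene with several probes has as its signal their geometric mean. A probe seen on 1 array gives a bound against the lowest signal well above background on the other. Of 39429 probes 26055 were named by accession through RefSeq genes of GRCm38.p6, and the others kept the file's name. Technical spread is the median SD of the spot-by-spot log2 difference over 239 probes with at least 5 usable spots.

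Both arrays were on 1 slide, with 1 array per group. The design allows no test, and precision is limited by how few arrays there are. Values are given for members at least 1.5-fold apart, for the highest and lowest of each set, for members printed more than once, and for the 3 largest differences of other lists. The members, lists and folds were chosen with earlier results of these data known, and the mitochondrially encoded set, the later symbols, the motifs and the printed probes after the values were seen. Alternatives were normexp (limma 3.58.1, offset 50), quantile normalization, median scaling, a signal minimum of 100, no filter, the brightest probe, the authors' value table and naming by accession. The scaling was run on simulated arrays that differed by a constant factor, with equal noise at all signals. That simulation holds no scale difference that varies with signal, so it cannot judge between the scalings. The value of 1 member is not reported here, though it is counted in the medians and shares.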

Additional observations from a re-analysis of the deposited data

How the results depend on the processing

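A median or a gene's difference was counted as moved when it changed by more than 0.08, the technical spread over all probes. Scaling to the median of spots well above background on both arrays, a signal minimum of 100, no filter and the brightest probe moved none of the medians or counts by that much. With normexp background correction the medians were 0.021 for complex I subunits, 0.020 for its accessory subunits, -0.14 for complex III, 0.0070 for complex V, -0.0026 for F1 and 0.017 for Fo and the stalk. Under quantile normalization they were 0.15 for all members, 0.16 for complex I subunits, 0.083 for its core and 0.17 for its accessory subunits, 0.079 for complex II, -0.039 for complex III, 0.18 for complex V, 0.10 for F1, 0.19 for Fo and the stalk and 0.18 for subunits minus assembly factors. In the authors' value table the same medians were 0.11, 0.11, 0.10, 0.11, 0.032, -0.083, 0.14, 0.059, 0.14 and 0.12, in that order. With members named by accession the assembly factors had a median of -0.31, subunits minus assembly factors was 0.23 and 2 members were at least 1.5-fold lower, since Ndufaf8 joined Ndufs4. The cause of these shifts under the other scalings was not tested. Ndufs4 was at least 1.5-fold lower in all 8 settings that use the rule's names, at -0.59 under quantile normalization, just past that fold. Of the 71 single values 63 moved under quantile normalization, 63 in the authors' value table, 48 with normexp and 3 with the brightest probe. Without a filter, dimmer spots were raised to the lowest signal well above background, 12.9 for the library labelled Snail and 13.8 for wild-type. The median of all genes in that setting, -0.47, was set by these floors after scaling and is no shift of genes. The median of the members, which lie above the floors, stayed at -0.08. The 8 members with a signal under 1000 on either array had a median of 0.05, against -0.09 for the other 63. No paired analysis was possible because each group has 1 array.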
